A study of Sus scrofa with 10 samples.

Results

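ZIC1, ZIC2, ZIC4 and ZIC5 are the members of the ZIC family examined here, 4 of the 22452 genes in the count tables. They were taken by their names in the files and by no cut on their values, but with earlier results of these data known. ZIC proteins are transcription factors with C2H2 zinc fingers, related to the GLI factors of the Hedgehog pathway. They are known for the dorsal neural tube, where they are made in the roof plate and in dorsal progenitors, for the granule neurons of the cerebellum, from which the family has its name (zinc finger of the cerebellum), and for the meninges. Loss of ZIC1 and ZIC4 in humans is linked to malformation of the cerebellum, and mutation of ZIC2 to holoprosencephaly, a failure of the forebrain to divide.

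UMIs, the single RNA molecules counted by their barcodes, were measured in 10 libraries of 28229 cells or nuclei dissected as pig entorhinal cortex, with 1 library of whole cells from E50 (3 pooled brains), 3 from E60 (1, 1 and 2 brains), 3 from E70 (2, 1 and 1 brains) and 1 from the adult pig (1 brain), and 1 library of isolated nuclei each from E70 and the adult (1 brain each). The numbers of brains are those of the labels, and the sources do not give the same number for E70 libraries 1 and 3. The labels call the adult samples adult, and the sources differ on their age. The fetuses were crossbred males and females from production sows and were neither treated nor genetically altered. Whole cells were freed with papain, and nuclei came from frozen tissue and were sorted by the DNA stain 7-AAD. A library held 493 to 8171 cells and 2336865 to 55755512 UMIs, so a level of the E50 library rests on far more molecules than one of the adult nuclei. Only the whole cells of E60 and E70 had replicate libraries, and for any other stage there is no replicate check. Nothing in the labels ties a library to a litter or a day, so p-values measure the spread between these libraries.

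E60 libraries 1 and 2 stood apart from the other fetal libraries. LHX2, a transcription factor of the telencephalon, was at 3.53 and 1.89 CPM (counts per 1000000 UMIs of the library or class) in them, but between 40.9 and 93.6 CPM in the E50 library, E60 library 3 and the E70 whole cells. The same 2 libraries held NEUROD6, a marker of cortical excitatory neurons, at 2.91 and 0.275 CPM, against 22.3 to 265 CPM in the other fetal libraries, and had no cell that was placed with the cortical excitatory neurons. The 7 telencephalic genes of the list used here summed to 8.19 and 4.25 CPM in them, against 109 to 470 CPM in the other fetal libraries. The adult cells and nuclei were also low, with sums of 29.2 and 20.97 CPM and NEUROD6 at 0.688 and 5.14 CPM. EN2, a factor of the midbrain and rostral hindbrain, was at 37.4 and 14.0 CPM in the 2 E60 libraries and at 24.1 CPM in the E50 library, and at most at 0.735 CPM elsewhere. The list of midbrain and hindbrain genes as a whole did not follow EN2, with sums of 132 and 213 CPM in these 2 libraries and 522 and 463 CPM in E70 libraries 1 and 2, where PAX2 was the highest of its genes. EN2 was singled out after the values were seen. The label of entorhinal cortex is thus not borne out by telencephalic genes in these 2 E60 libraries, and the main stage differences, class means and shares of UMIs are also given without them, a choice made after seeing the data. Other values rest on all libraries.

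The 4 genes lie as 2 head-to-head pairs in Sscrofa11.1 (RefSeq annotation). ZIC4 (chr13:87725642-87740724, minus strand, 5 exons) and ZIC1 (chr13:87740769-87750258, plus strand, 3 exons) have 44 bases between their starts. ZIC5 (chr11:68821733-68830472, minus strand, 2 exons) and ZIC2 (chr11:68840802-68845441, plus strand, 3 exons) are divided by 10.3 kb. The 30 bases just before each start are shown because several results below are given by these pairs, although ZIC2 and ZIC5 did not always go together. Every CG dinucleotide is in capitals, and each sequence is read 5′ to 3′ on the strand of its gene.
ZIC1: tctgccCGgccCGaggtcaccagctgcacc
ZIC4: cctCGggcCGggcagaggtggggagccatt
ZIC2: gggagcCGaggaggCGCGgggctCGcCGgg
ZIC5: aCGgctccctccaatcccacccttgccatt
These are chr13:87740739-87740768 (plus) for ZIC1, chr13:87740725-87740754 (minus) for ZIC4, chr11:68840772-68840801 (plus) for ZIC2 and chr11:68830473-68830502 (minus) for ZIC5. The ZIC1 and ZIC4 stretches have 16 bases in common, read on opposite strands, so that a single short stretch of DNA stands before both genes.

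In windows from 250 bases before to 50 bases after each start, the CG dinucleotide (both strands read alike) occurred 42 times at ZIC2, a number reached by 7.33% of 19556 such windows of the pig genome. It occurred 24 times at ZIC5 (reached by 33.0% of windows) and 12 times each at ZIC1 and ZIC4 (58.9%), around a median of 16 over all windows. The GC content was 79.0% at ZIC2, 66.7% at ZIC5, 62.3% at ZIC1 and 61.0% at ZIC4, against a median of 58.7%. ZIC2 thus has the window richest in CG of the 4. The genes were counted by the authors on Ensembl gene models, which may start elsewhere. A noncoding gene, LOC106505375, lies on the plus strand within the span of ZIC4, and reads of introns were counted.

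In the cells as a whole, all 4 genes were lower at E70 than at E60, and ZIC1 and ZIC4 were nearly absent from the E70 libraries. ZIC1 was at 9.31 CPM in the E50 library, at 13.4, 21.5 and 14.0 CPM in the 3 E60 libraries, at 1.58, 1.01 and 2.23 CPM in the 3 E70 whole cell libraries, at 1.62 CPM in the E70 nuclei, at 11.2 CPM in the adult cells and at 4.28 CPM in the adult nuclei. ZIC4 was at 14.1 CPM at E50, at 8.53, 19.2 and 6.68 CPM at E60, and at 0.792, 0 and 0.180 CPM at E70. The library at 0, the second of E70, had no ZIC4 UMI among 6951014, where 3 UMIs, taken as the limit that a count of 0 allows, would be 0.432 CPM (the two-sided 95% Poisson interval plotted by library reaches 0.531 CPM). ZIC4 had no UMI in the E70 nuclei either, where 3 UMIs would be 0.971 CPM (interval to 1.19 CPM), and stood at 3.44 CPM in the adult cells and 0.856 CPM in the adult nuclei.

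The other pair was also lower at E70 but was found in every library. ZIC2 was at 11.4 CPM at E50, at 21.6, 44.8 and 20.9 CPM at E60, at 7.60, 5.61 and 9.34 CPM in E70 cells, at 0.647 CPM in E70 nuclei, at 17.2 CPM in adult cells and at 3.42 CPM in adult nuclei. ZIC5 was at 7.39 CPM at E50, at 12.7, 28.4 and 9.10 CPM at E60, at 3.48, 4.89 and 4.92 CPM in E70 cells, at 3.24 CPM in E70 nuclei, at 9.77 CPM in adult cells and at 1.71 CPM in adult nuclei. E60 library 2 was the highest library for each of the 4 genes.

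**Figure D1:**
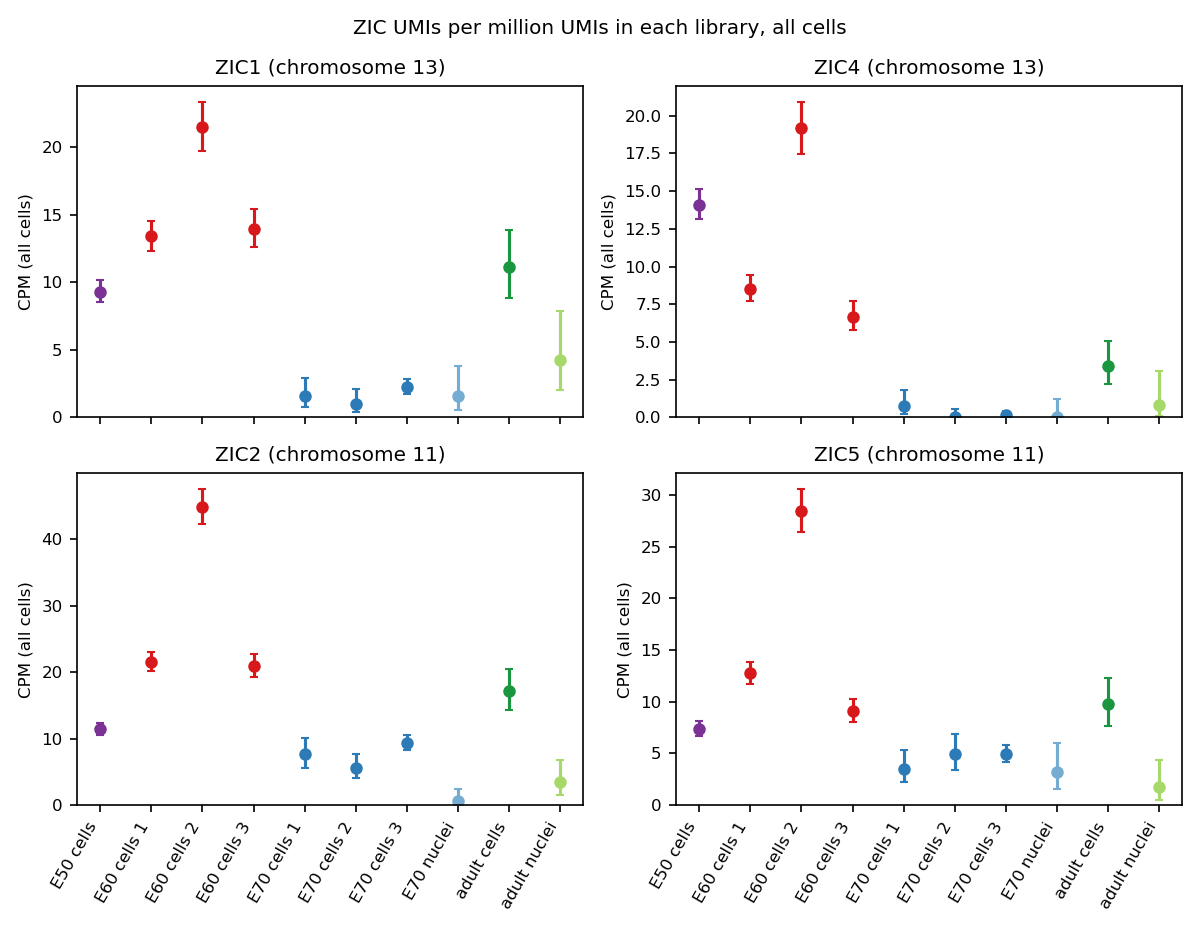
CPM of ZIC1, ZIC4, ZIC2 and ZIC5 over all cells of each of the 10 libraries, with exact 95% Poisson intervals that cover counting error only. For every gene the 3 E60 libraries lie above the 3 libraries of E70 whole cells, and ZIC4 has no UMI in E70 library 2 and the E70 nuclei.

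The mean of ZIC1 was 16.3 ± 4.52 CPM (SD, n = 3) at E60 and 1.61 ± 0.610 CPM at E70, a log2 fold change of -3.52 (SE 0.48) in edgeR's quasi-likelihood test. ZIC4 had 11.5 ± 6.73 CPM against 0.324 ± 0.415 CPM (log2 fold change -5.61, SE 0.97), ZIC2 had 29.1 ± 13.6 against 7.52 ± 1.86 CPM (-2.19, SE 0.47) and ZIC5 had 16.8 ± 10.3 against 4.43 ± 0.820 CPM (-2.17, SE 0.57). All 4 differences had the same Benjamini-Hochberg adjusted p of 0.122 over the 16743 genes tested with edgeR, and none passed 0.05. The unadjusted p values from edgeR were 9.43e-05 for ZIC1, 0.000426 for ZIC4, 0.00165 for ZIC2 and 0.00524 for ZIC5. In this test 0% of the genes were called (0 of 16743), whereas 29.4% had an unadjusted p under 0.05, and 14.3% had one and were lower at E70.

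DESeq2, run as an alternative, called all 4 genes lower at E70 (adjusted p 3.42e-08, 7.76e-08, 0.00108 and 0.00545 for ZIC1, ZIC4, ZIC2 and ZIC5), beside 6.66% of all genes called lower. ZIC4, with a mean of 0.324 CPM at E70, passed the filter on low counts through the E60 libraries. Its p values for the stage difference, with either tool and with a library left out, are therefore not taken as support. Every E60 library was above every E70 library for all 4 members, as it was for 11.5% of all genes tested. ZIC4 had a lower log2 fold change than all but 5 of the 16743 genes, and ZIC1 than all but 45, while 304 genes lay below ZIC2 and 322 below ZIC5. The fold change and rank of ZIC4 rest on few UMIs at E70 and depend on the prior count. With E60 library 3 as the only E60 library, an alternative chosen after seeing the data, the log2 fold changes were -3.06 for ZIC1, -4.57 for ZIC4, -1.47 for ZIC2 and -1.02 for ZIC5 (edgeR, adjusted p 0.949 for each), where the spread comes from the E70 libraries alone and the lone E60 library is assumed to vary like them. All 4 were then smaller in size than with the 3 E60 libraries. Without E60 library 3 the adjusted p of edgeR was 0.0149 to 0.0182 for the 4 genes, with 16% of all genes called lower at E70, and without E70 library 3 it was 0.0131 for ZIC1 and 0.0489 for ZIC4, with 1.56% of all genes called lower at E70.

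Summed counts cannot tell fewer cells of a type from less RNA per cell, and the cell classes richest in ZIC UMIs differed in number between the stages. Granule-like cells numbered 333, 34 and 2 in the 3 E60 libraries and 0, 2 and 0 in those of E70. Fibroblast-like cells numbered 23, 21 and 129 at E60 and 1, 1 and 2 at E70, and endothelial-like cells 795, 839 and 72 against 11, 13 and 66. The E70 libraries held fewer cells in all, and as shares of the cells of a library the endothelial-like cells were 9.73%, 24.1% and 2.67% at E60 and 2.23%, 2.11% and 2.12% at E70, so that E60 library 3 was close to E70. Fibroblast-like cells were 0.281%, 0.604% and 4.78% against 0.203%, 0.162% and 0.0641%, and ZIC1 and the other members were not used in naming any of them. The part of these numbers in the stage difference was not tested. Without erythroid-, endothelial-, mural- and fibroblast-like cells the log2 fold changes of ZIC1 and ZIC4 were larger in size, that of ZIC4 depending on the prior count. Those of ZIC2 and ZIC5 were then smaller in size, and all are given in the last section. Pairs of libraries that the study sequenced in one pool are E60 and E70 library 1, and E60 and E70 library 3, and in both pairs each of the 4 genes was lower at E70.

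Other genes of the pathway and of the dorsal midline were not called in edgeR either. Of the list of GLI and GLIS relatives and Hedgehog pathway genes, 14 of 17 could be tested, 0 were called (8 had an unadjusted p under 0.05, beside 29.4% of all genes) and the median log2 fold change was -0.27, beside -0.06 for all genes. Among the genes that DESeq2 called, beside 10.3% of all genes called higher and 6.66% called lower, GLIS3 was lower at E70 and HHIP, a decoy receptor of Hedgehog ligands, and CDON, a Hedgehog co-receptor, were higher. GLI3, the main repressor of Hedgehog targets and highest of this list, was at 103, 141 and 397 CPM at E60 and at 216, 171 and 261 CPM at E70. GLIS3, a GLI-like zinc finger factor, was at 364, 231 and 84.8 CPM against 83.2, 91.9 and 104 CPM. SUFU, which holds GLI proteins in the cytoplasm, was at 83.2, 98.4 and 106 CPM against 134, 111 and 94.2 CPM. For none of these 3 genes did the 2 stages separate.

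Of the roof plate and dorsal midline genes 12 of 14 were tested, 0 were called (2 with an unadjusted p under 0.05, and LMX1A higher at E70 by DESeq2) and the median was 0.58. LMX1A, which specifies the roof plate, was at 2.85, 2.63 and 10.9 CPM at E60 and 111, 116 and 9.12 CPM at E70. BMP6, a secreted roof plate signal, was at 15.6, 16.3 and 42.0 CPM at E60 and at 47.4, 36.8 and 24.99 CPM at E70, and RSPO3, a secreted activator of WNT signalling, was at 2.73, 49.5 and 19.6 CPM and at 19.3, 16.8 and 19.0 CPM. In these genes the E70 libraries were not lower as a group, unlike in the ZIC genes. The telencephalic list (7 of 7 tested, median 0.95) and the list of midbrain and hindbrain genes (9 of 17 tested, median 0.00) also held 0 called genes, with 0 and 5 at an unadjusted p under 0.05. DESeq2 called 0 telencephalic genes, but PAX2 higher and EN2, PAX3 and IRX3, further factors of this region, lower at E70. PAX2, PAX5 and PAX7, factors of the midbrain and hindbrain, were the highest of the latter list, and PAX2 was at 11.9, 18.3 and 63.5 CPM at E60 and at 351, 335 and 82.7 CPM at E70.

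By cell class, all 4 ZIC genes had their highest means in granule-like and fibroblast-like cells. Mural-like cells came next for ZIC1 and ZIC4, and endothelial-like cells were above them for ZIC2. Medians over libraries were at most 0.446 CPM in cortical excitatory-like and 0 CPM in DLX interneuron-like cells for each gene, and at most 1.87 CPM in oligodendroglia-like cells. Clusters were formed without the ZIC genes and the marker genes and are called like the type whose markers lead in them. ZIC1 had a mean of 114 ± 66.1 CPM in fibroblast-like cells (SD, n = 5 libraries with at least 20 such cells), 108 ± 34.1 CPM in granule-like cells (n = 3), 67.1 ± 19.3 CPM in mural-like cells (n = 4) and 22.1 ± 10.8 CPM in endothelial-like cells (n = 6). ZIC4 had 145 ± 54.2 CPM in granule-like, 63.6 ± 45.3 in fibroblast-like, 41.5 ± 20.4 in mural-like and 5.76 ± 3.57 CPM in endothelial-like cells. ZIC2 had 126 ± 80.5 CPM in fibroblast-like, 84.3 ± 19.2 in granule-like, 55.7 ± 18.4 in endothelial-like and 24.99 ± 6.43 CPM in mural-like cells. ZIC5 had 85.5 ± 34.7 CPM in granule-like, 74.9 ± 65.5 in fibroblast-like, 20.8 ± 17.2 in astroglia-like and 19.7 ± 10.7 CPM in endothelial-like cells, with 4.76 to 22.5 CPM over the libraries of mural-like cells.

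Without E60 libraries 1 and 2, the mean of ZIC1 was 81.2 ± 68.7 CPM in fibroblast-like (n = 3), 51.9 ± 5.85 CPM in mural-like (n = 2) and 25.04 ± 12.7 CPM in endothelial-like cells (n = 4), and granule-like cells were left in the E50 library alone. That of ZIC2 was then 84.4 ± 45.9 CPM in fibroblast-like, 46.6 CPM (36.5 to 68.8 CPM over libraries) in endothelial-like and 22.5 ± 3.90 CPM in mural-like cells. ZIC4 was at 44.0 ± 26.4 CPM in mural-like and 40.1 ± 39.9 CPM in fibroblast-like cells, so that these 2 classes changed places, and ZIC5 at 39.0 ± 22.9 CPM in fibroblast-like cells. In endothelial-like cells ZIC4 was then at 5.75 ± 4.49 CPM and ZIC5 at 13.4 ± 3.90 CPM.

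In this order neighbouring classes mostly overlapped over their libraries. For ZIC1, fibroblast-like (37.9 to 172 CPM) and granule-like cells did not separate, and mural-like cells overlapped with fibroblast-like cells. Granule-like cells lay above mural-like cells for ZIC4, ZIC2 and ZIC5 in every library. The endothelial-like cells were below the granule-like cells for ZIC2 in the E50 library (36.5 against 82.4 CPM) and E60 library 1 (71.4 against 104 CPM) and above them in E60 library 2 (76.7 against 66.0 CPM).

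**Figure D2:**
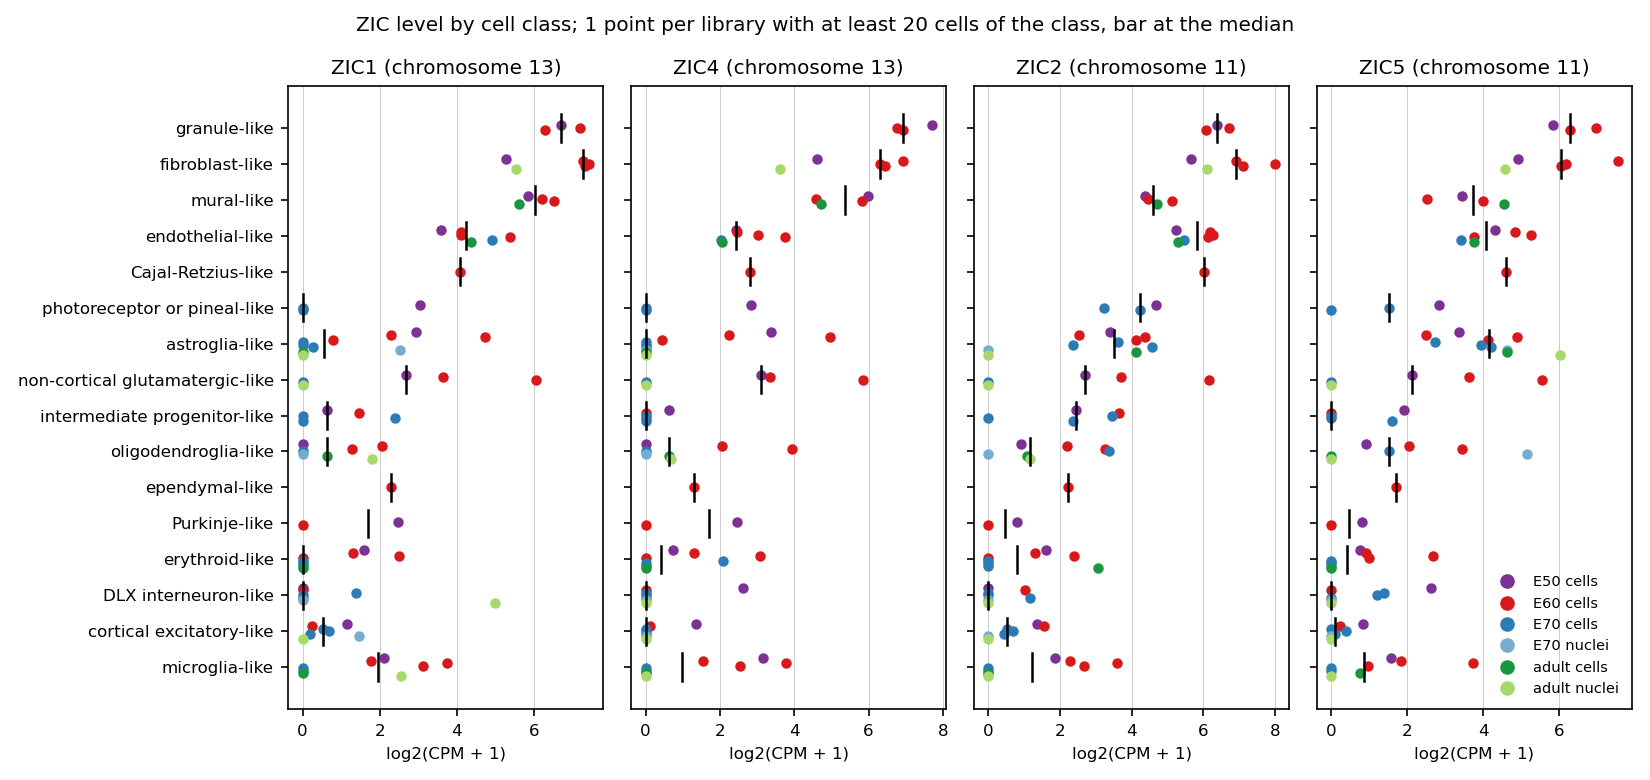
log2(CPM + 1) of ZIC1, ZIC4, ZIC2 and ZIC5 in the cell classes, with 1 point for each library that had at least 20 cells of the class and a bar at the median over libraries. Granule-like, fibroblast-like and mural-like cells lie highest for ZIC1 and ZIC4, whereas endothelial-like cells lie below the mural-like cells for ZIC1 (10.99 to 40.4 CPM against 47.8 to 91.2 CPM) and above them for ZIC2.

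Microglia, which arise outside the neural tube, should lack ZIC RNA, and their level was taken as the background in each library. ZIC1 was at 3.84 ± 4.39 CPM in microglia-like cells (SD, n = 8 libraries), ZIC2 at 2.85 ± 3.88, ZIC4 at 3.43 ± 4.75 and ZIC5 at 2.32 ± 4.17 CPM, with the highest values, 10.9 to 12.7 CPM, in E60 library 2. ZIC1 was found in 2.05% of 2640 microglia-like cells at a median depth of 5100 UMIs, but in 42.7% of 586 granule-like cells at 4324 UMIs and in 32.8% of 351 mural-like cells at 5804 UMIs. The background was not alike in all clusters of microglia-like cells. Clusters 14 and 20 (788 and 501 cells) held ZIC4 at 10.6 and 7.34 CPM, and 41 and 48 of their cells had a doublet score over 0.25, whereas clusters 9 and 28 (1043 and 308 cells) held it at 0.347 and 0.373 CPM. In the E50 library ZIC4 was at 41.0 CPM in cluster 14, from 22 cells, and at 0.968 CPM in cluster 9. The part of doublets in this level was not tested.

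With each cell drawn down to 1000 UMIs, the shares of cells with a ZIC1 UMI were 12.6% in granule-like, 9.38% in fibroblast-like, 9.14% in mural-like, 1.44% in endothelial-like and 0.171% in microglia-like cells. Those for ZIC2 were 9.90%, 7.63%, 2.57%, 4.93% and 0.428% in the same order.

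Cortical excitatory-like cells, the principal neurons of the tissue, held ZIC1 at 0.626 ± 0.646 CPM (SD, n = 7 libraries), with a UMI in 0.467% of 5349 cells at a median of 7427 UMIs, and DLX interneuron-like cells held it in 0.227% of 880 cells. Both shares were below that of microglia-like cells over all libraries, of which 1191 and 491 of 2640 came from E60 libraries 1 and 2, where no cortical excitatory-like cell was found. Within libraries, ZIC1 was found in 1.03% of cortical excitatory-like and 3.17% of microglia-like cells at E50, in 0.151% and 7 of 140 cells in E60 library 3, and in 0.130% and 0 of 100 cells in E70 library 3. Whether the UMIs in cortical excitatory-like cells come from free RNA was not tested.

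At full depth a UMI of any of the 4 genes was found in 79.7% of granule-like, 75.4% of Cajal-Retzius-like, 65.4% of fibroblast-like, 58.6% of endothelial-like, 51.3% of mural-like and 17.4% of astroglia-like cells, against 5.15% of microglia-like, 1.93% of cortical excitatory-like and 1.80% of oligodendroglia-like cells. The depth differed widely, with a median of 26900 UMIs in Cajal-Retzius-like, 4324 in granule-like and 1020 in oligodendroglia-like cells. With all cells drawn down to 1000 UMIs it was found in 38.1% of granule-like, 23.8% of fibroblast-like, 14.3% of mural-like, 9 of 69 Cajal-Retzius-like, 181 of 2010 endothelial-like, 3.46% of astroglia-like, 1.16% of microglia-like, 0.526% of oligodendroglia-like and 0.283% of cortical excitatory-like cells. Mural-like cells then came before endothelial-like cells. Only 147 of all cells held all 4 genes.

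The differences from microglia-like cells of the same library were tested by exact sign flips of log2(CPM + 1) over libraries, two-sided, in 52 tests of a gene in a class. After Benjamini-Hochberg adjustment 0 passed, with 5 at an unadjusted p under 0.05. No outcome could have passed. The smallest exact p that any class allowed, 0.00781 in astroglia-like cells, was too high for the few tests able to reach it. The adjusted p values below are therefore not read as evidence of no difference. Endothelial-like cells were higher in 6 of 6 libraries for ZIC1 (mean difference 2.62 on the log2 scale), ZIC2 (4.03) and ZIC5 (2.74), each with an exact p of 0.0313, the smallest that 6 libraries allow, and an adjusted p of 0.325. Without cluster 13, described further on, ZIC1 was higher in 3 of 6 libraries (0.76, exact p = 0.469), while ZIC2 (4.03) and ZIC5 (2.51) were higher in 6 of 6, an alternative chosen after seeing the data. Astroglia-like cells were higher for ZIC5 in 8 of 8 libraries (2.95, exact p = 0.00781, adjusted p = 0.325) and for ZIC2 in 7 of 8 (2.04, exact p = 0.0156, adjusted p = 0.325). Fibroblast-like cells were higher in 5 of 5 libraries for all 4 genes, by 3.91 for ZIC1, 4.68 for ZIC2, 3.37 for ZIC4 and 4.22 for ZIC5, where the exact test cannot go below 0.0625. Mural-like cells were higher in 4 of 4 libraries (4.14, 2.74, 3.15 and 1.65 for ZIC1, ZIC2, ZIC4 and ZIC5, smallest possible exact p 0.125) and granule-like cells in 3 of 3 (4.18, 3.81, 4.30 and 3.97, smallest possible exact p 0.25). ZIC4 in endothelial-like cells differed by 0.78 (higher in 4 of 6, exact p = 0.188), and ZIC1 and ZIC4 in astroglia-like cells by -0.29 (4 of 8, exact p = 0.563) and 0.00 (3 of 8, exact p = 1). Without E60 libraries 1 and 2, endothelial-like cells were higher in 4 of 4 libraries for ZIC1 (3.25), ZIC2 (4.39) and ZIC5 (2.99), and astroglia-like cells in 6 of 6 for ZIC5 (3.62) and 5 of 6 for ZIC2 (2.55).

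The granule-like cells came from the E50 library (215), E60 library 1 (333) and E60 library 2 (34). PAX6, RELN, CBLN1, ATOH1 and other markers of granule neurons and their progenitors summed to 2723 and 2328 CPM in those of the E50 library and E60 library 1, against 222 and 244 CPM in the other cells. In those of E60 library 2 only 4 of the 9 markers were higher than in the other cells, and CBLN1, CBLN3, BARHL1 and ATOH1 were at 0. ZIC4 was at 207 CPM in the granule-like cells of the E50 library, 107 CPM in those of E60 library 1 and 121 CPM in those of library 2, and ZIC1 at 103, 145 and 77.0 CPM. These cells made up 1.67% of all UMIs but 30.8% of the ZIC4 UMIs and 17.9% of the ZIC1 UMIs, and without E60 libraries 1 and 2 they made up 1.51% of all UMIs, 42.1% of those of ZIC4 and 19.4% of those of ZIC1.

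The 2 clusters of granule-like cells differed in their ZIC genes. One, of 321 cells, was led by the cell cycle genes UBE2C, CENPF and TOP2A among others, and the other, of 265 cells, by NEUROD1 and CBLN1. ZIC4 was at 60.9 CPM in the cluster with cell cycle genes and 174 CPM in the other in E60 library 1, and at 75.0 and 305 CPM in the E50 library. ZIC1 was at 92.1 and 222 CPM in E60 library 1 and at 55.7 and 138 CPM in the E50 library. ZIC2 was at 92.1 and 122 CPM in E60 library 1 and at 47.7 and 108 CPM in the E50 library. ZIC5 had the opposite order in E60 library 1, with 136 and 106 CPM, and 56.8 and 55.0 CPM in the E50 library. ZIC1, ZIC4 and ZIC2 were thus higher in the cluster with NEUROD1 in both libraries, whereas ZIC5 was not. ZIC1 and ZIC4 together made up 40.1% (95% CI 34.2 to 46.3) and 63.5% (57.7 to 68.9) of the UMIs of the 4 genes in E60 library 1, and 55.6% and 73.1% in the E50 library.

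Fibroblast-like cells held the collagen genes and most other markers of the class, with 8 to 10 of the 11 above the other cells in each library. Among these markers, FOXC2 was at 0 in 5 of 5 libraries and FOXC1 in 4 of 5. These cells had ZIC1 at 37.9 CPM in the E50 library, 153, 172 and 160 CPM in the 3 E60 libraries and 45.3 CPM in the adult nuclei. ZIC2 was at 49.0 CPM, at 120, 254 and 136 CPM, and at 68.0 CPM in the same libraries. Both genes were lower at E50 and in the adult nuclei than in any E60 library, and the same held for ZIC4 and ZIC5, with 1 library at each of those ages. The adult nuclei of this class held 13 ZIC UMIs among 88249, of which 4 were of ZIC1 and 6 of ZIC2, so that the 95% Poisson intervals of ZIC1 (12.4 to 116 CPM) and ZIC2 (24.95 to 148 CPM) reached into those of E60 library 1. In the adult whole cells, 15 fibroblast-like cells, too few for the means, had ZIC1 at 129 CPM and ZIC2 at 117 CPM. In the adult nuclei the markers of the class summed to 419 CPM, against 98.3 CPM in the other nuclei, so that this group was less clearly fibroblast-like than the rest. Apart from these, E60 library 3 had 129 of the cells and 266 of its 399 ZIC1 UMIs lay in them.

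Endothelial-like cells, the lining cells of vessels, held 48.9% of all ZIC2 UMIs and 34.5% of those of ZIC5, beside 13.9% of the UMIs of all genes. Without E60 libraries 1 and 2, from which 795 and 839 of the 2012 cells came, they held 27.5% of the ZIC2 UMIs and 16.1% of those of ZIC5, beside 7.34% of all UMIs. ZIC2 was at 36.5 CPM at E50, at 71.4, 76.7 and 68.8 CPM at E60, at 42.7 CPM in E70 library 3 and at 38.4 CPM in adult cells. It was lower in the E50, E70 and adult libraries than in any at E60. ZIC1 did not follow this order, with 10.99 CPM at E50, 16.4, 16.3 and 40.4 CPM at E60, 29.3 CPM at E70 and 19.5 CPM in adult cells. PECAM1, CLDN5 and the other endothelial markers were higher in these cells than in the rest in each of the 6 libraries.

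ZIC1 and ZIC4 differed between the 2 clusters of endothelial-like cells, whereas ZIC2 differed little. Cluster 5, with 1212 cells, was led by APOA1, CD93 and APLNR, and cluster 13, with 800 cells, by RGS5, a marker of mural cells, beside FLT1 and KDR. ZIC1 was at 1.06 and 30.1 CPM in clusters 5 and 13 in E60 library 1, at 1.54 and 39.6 CPM in library 2, at 27.1 and 52.4 CPM in library 3, at 1.95 and 22.6 CPM in the E50 library and at 5.51 and 41.1 CPM in E70 library 3. It was higher in cluster 13 in 5 of 5 libraries, but cluster 5 was far from empty of it in E60 library 3 and in the adult cells, where 72 of the 80 endothelial-like cells lay in cluster 5 and had ZIC1 at 13.5 CPM. ZIC4 had the same order in all 5, with 0.462 and 17.5 CPM in E60 library 2, for example. ZIC2 was at 73.5 and 69.5 CPM, 75.1 and 79.1 CPM, and 75.7 and 62.5 CPM in the 3 E60 libraries, and at 37.6 and 35.2 CPM and 42.3 and 42.9 CPM in the E50 library and E70 library 3. ZIC5 was higher in cluster 5 in 4 of 5 libraries, with 17.8 and 7.60 CPM in E60 library 3, and lower in E70 library 3 (1.84 and 13.7 CPM), where cluster 5 had 1 UMI of it. Mural genes were the second list of cluster 13, its cells had 2.38 times the median UMIs of their libraries, against 1.55 times in cluster 5, and 7.25% of them had a doublet score over 0.25, against 1.40%. The part of mural RNA in this difference was not tested.

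**Figure D3:**
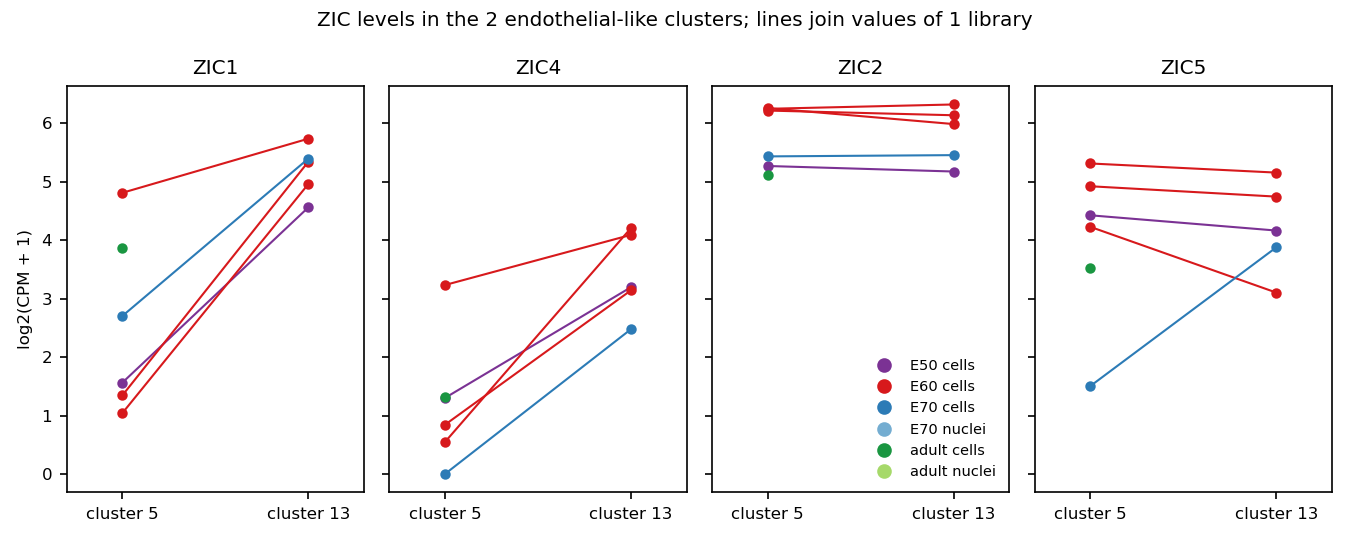
log2(CPM + 1) of ZIC1, ZIC4, ZIC2 and ZIC5 in endothelial-like clusters 5 and 13, with lines that join the values of 1 library with at least 20 cells in both, and a point alone for the adult cells in cluster 5. ZIC1 and ZIC4 are higher in cluster 13 in 5 of 5 libraries, and ZIC2 differs little between the clusters.

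The share of the UMIs of the 4 genes that came from the chromosome 13 pair, ZIC1 and ZIC4, was higher in mural-like than in endothelial-like cells, while granule-like cells overlapped with mural-like and with fibroblast-like cells over their libraries. It was 74.8% in mural-like cells (95% CI 69.7 to 79.5, exact Clopper-Pearson, all libraries together), 62.6% in granule-like, 50.9% in fibroblast-like (48.1 to 53.8) and 20.9% in endothelial-like cells. In endothelial-like cells it was 5.78% (4.66 to 7.08) in cluster 5 and 33.7% (31.5 to 35.9) in cluster 13, with all libraries together. Cluster 5 was at 1.77% and 1.73% in E60 libraries 1 and 2, which held most of its UMIs, at 5.56% in the E50 library and 3 of 27 UMIs in E70 library 3, but at 27.5% (20.3 to 35.8) in E60 library 3 and 25.3% (16.2 to 36.4) in the adult cells. Within a library cluster 13 was higher in each of the 5 libraries with both, at 28.5% to 49.4%. Without E60 libraries 1 and 2 the share was 69.4% in mural-like, 69.2% in granule-like, 51.9% in fibroblast-like and 30.7% in endothelial-like cells, and 67.7% (55.0 to 78.8) in microglia-like cells, the background. Mural-like cells held 60.5% to 80.0% in the 4 libraries with at least 20 such cells, and endothelial-like cells 17.02% to 39.4% in their 6 libraries, so the 2 vascular classes did not overlap. Over all libraries microglia-like cells stood at 52.8% (46.6 to 58.9). These intervals cover counting error only, and the share depends on how well each 3′ end was captured, so it compares classes and not genes.

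**Figure D4:**
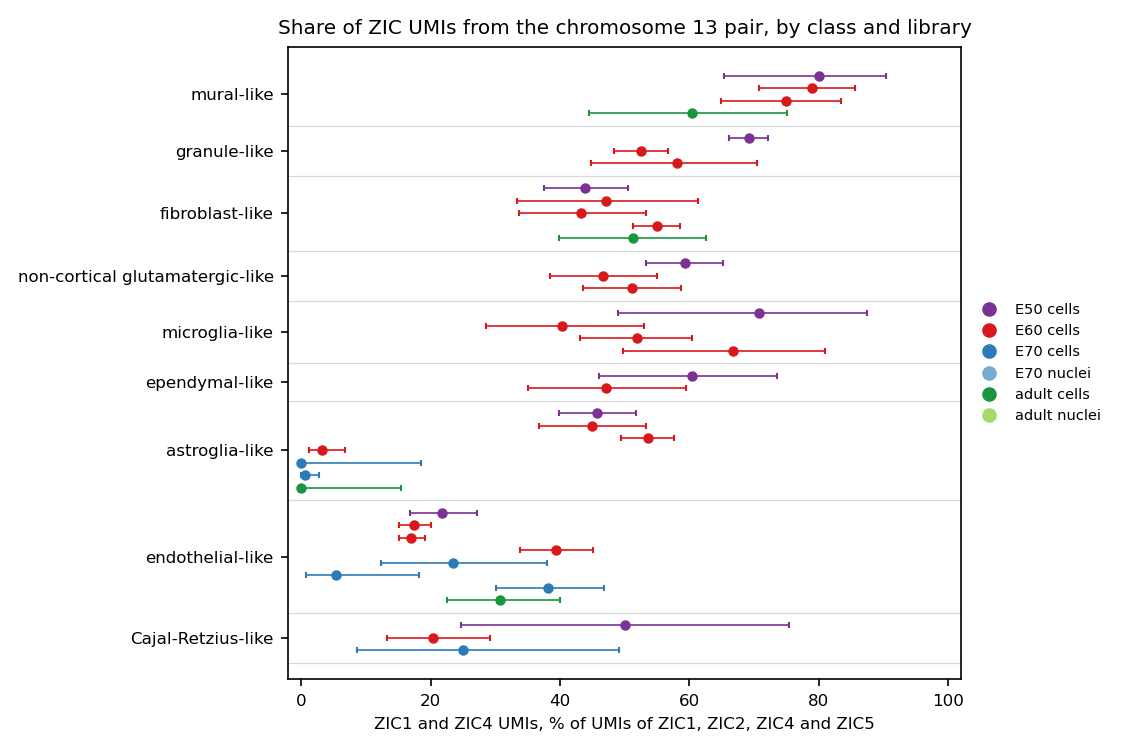
Share of ZIC1 and ZIC4 in the UMIs of the 4 genes, by class and library, for libraries with at least 15 such UMIs in the class, with exact 95% binomial intervals. Mural-like cells lie at 60.5% to 80.0%, and astroglia-like cells fall into libraries at 44.9% to 53.5% and libraries at 0% to 3.17%.

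Astroglia-like cells, the radial glia and astrocytes, had UMIs of ZIC2 and ZIC5 in every whole cell library, while ZIC1 and ZIC4 exceeded 1 CPM in 3 of the 8. ZIC1 was at 6.63 CPM in those of the E50 library, at 3.93, 25.3 and 0.714 CPM in the 3 E60 libraries, at 0, 0 and 0.207 CPM in the 3 E70 libraries and at 0 CPM in the adult cells. ZIC4 was at 9.33 CPM, at 3.70, 30.4 and 0.357 CPM, at 0, 0 and 0 CPM and at 0 CPM in the same libraries. ZIC1 and ZIC4 were at or under 0.714 CPM in the whole cells of E60 library 3, E70 and the adult, all of which had LHX2 in these cells. The counts of 0 allow up to 5.61 CPM (3 UMIs) in E70 library 1, 3.09 CPM in E70 library 2 and 5.46 CPM in the adult cells, so that a level like that of E60 library 1 was not detectable in E70 library 1 and the adult cells. ZIC2 was at 9.57 CPM, at 4.73, 19.6 and 16.2 CPM, at 11.2, 4.12 and 22.9 CPM and at 16.4 CPM, and ZIC5 at 9.33 CPM, at 4.62, 28.8 and 16.4 CPM, at 5.61, 14.4 and 17.4 CPM and at 23.6 CPM. Neither stage stood apart for ZIC2 and ZIC5. The astroglia-like nuclei of E70 held 1 UMI of ZIC1 and 5 of ZIC5 among 209661.

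The background was close to these levels of ZIC1 and ZIC4 in part. Microglia-like cells of the E50 library and E60 libraries 1 and 2 held ZIC1 at 3.31, 2.43 and 12.4 CPM and ZIC4 at 7.95, 1.95 and 12.7 CPM, below the astroglia-like cells in each case. By cluster, those of cluster 14 held ZIC4 at 41.0, 10.9 and 35.1 CPM, above the astroglia-like cells, and those of cluster 9 held both genes at no more than 0.968 CPM. The chromosome 13 pair made up 40.3% and 51.8% of the ZIC UMIs of microglia-like cells and 55.6% and 55.4% of those of erythroid-like cells in E60 libraries 1 and 2, where the astroglia-like cells had 44.9% and 53.5%. The part of free RNA and doublets in the astroglia-like values was not tested.

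**Figure D5:**
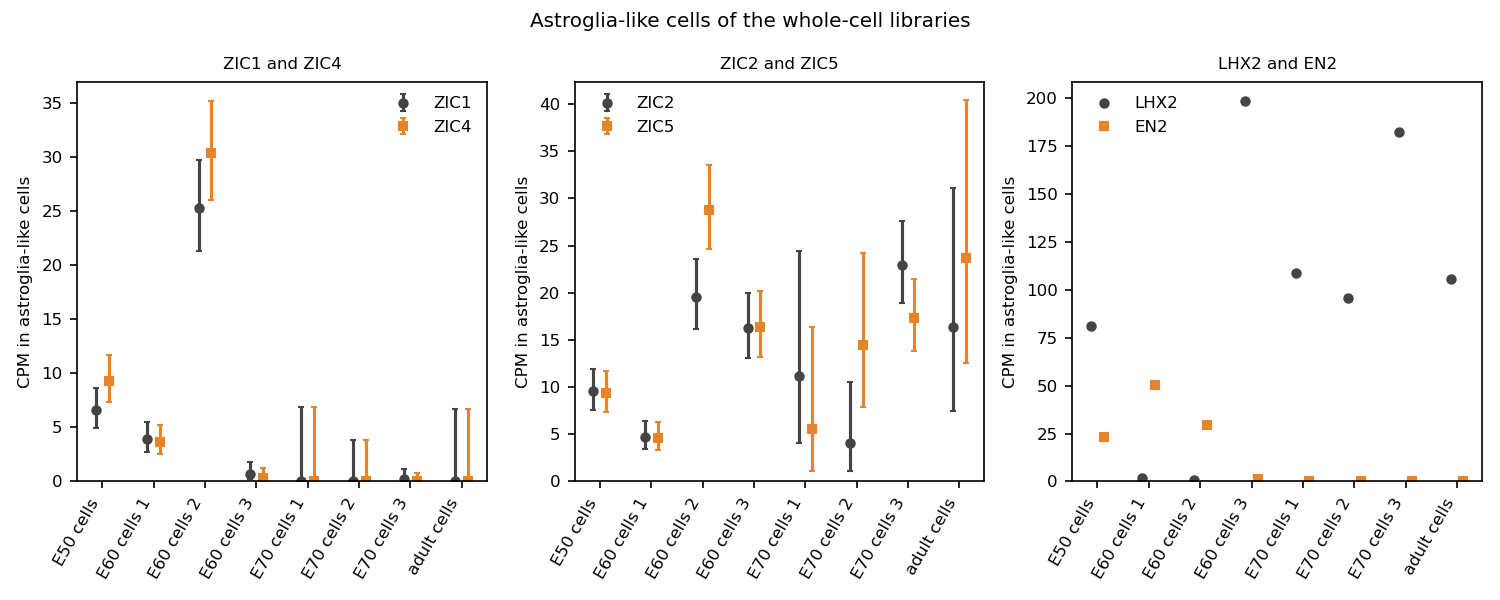
CPM of ZIC1 and ZIC4, of ZIC2 and ZIC5, and of LHX2 (telencephalon) and EN2 (midbrain and hindbrain) in the astroglia-like cells of the 8 whole cell libraries, with exact 95% Poisson intervals for the ZIC genes. ZIC1 and ZIC4 exceed 1 CPM only in the E50 library and E60 libraries 1 and 2, the 3 libraries with EN2 above 20 CPM.

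The chromosome 13 pair made up 45.8% (95% CI 39.9 to 51.8) of the ZIC UMIs of astroglia-like cells in the E50 library. It made up 3.17% (1.17 to 6.78) in E60 library 3, 0.510% (0.0129 to 2.81) in E70 library 3, 0 of 18 UMIs in E70 library 2 and 0 of 22 in the adult cells. The E50 library held astroglia-like cells with telencephalic and with midbrain or hindbrain genes, and after this was seen its cells were split by their UMIs. The 350 cells with EMX1, EMX2 or LHX2 and no EN or IRX gene had 12.0% of their ZIC UMIs from ZIC1 and ZIC4 (95% CI 5.93 to 21.0), with ZIC1 at 1.61, ZIC4 at 1.08, ZIC2 at 11.8 and ZIC5 at 7.80 CPM. The 157 cells with an EN or IRX gene and none of the former had 50.5% (40.2 to 60.8), with ZIC1 at 9.03, ZIC4 at 20.5, ZIC2 at 11.4 and ZIC5 at 17.5 CPM. The 246 cells with neither set of genes had 69.3% (57.6 to 79.5) and the 44 cells with both 65.5% (45.7 to 82.1). Within this library the share was therefore lowest in the cells with telencephalic genes alone. A cell without a UMI of these genes may still express them, so the split is a rough one. In E60 libraries 1 and 2 it was 42.9% and 49.2% in cells with EN or IRX genes alone and 45.7% and 55.4% in cells with neither set. These are cells of 1 library, and no test was made over them.

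Between the stages, ZIC2 in astroglia-like cells had a log2 fold change of -0.02 (SE 0.69, edgeR, adjusted p = 0.988) and ZIC5 one of -0.38 (adjusted p = 0.772), where edgeR called 0% of 14170 genes in either direction (2476 at an unadjusted p under 0.05, and 886 called by DESeq2). Without E60 libraries 1 and 2 they were -0.16 for ZIC2 and -0.23 for ZIC5 (edgeR, adjusted p = 1 for both). ZIC1 and ZIC4 had too few UMIs in these cells to pass the filter on low counts. Fitted without that filter they had log2 fold changes of -5.99 (edgeR, adjusted p = 0.175) and -8.77 (adjusted p = 0.208), which depend on the prior count, since the E70 libraries held 1 UMI of ZIC1 and none of ZIC4 in these cells.

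Neurons outside the cortical excitatory class differed between libraries. In non-cortical glutamatergic-like cells, which hold SLC17A6 and TCF7L2, ZIC1 was at 5.36 CPM in the E50 library, and 11.5 and 65.8 CPM in E60 libraries 1 and 2. ZIC2 was at 5.52, 12.0 and 71.1 CPM in the same libraries. Neither had a UMI in E70 library 3 or the adult nuclei, where 3 UMIs would be 10.3 and 160.1 CPM, the latter from 23 nuclei. The level in E60 library 2 was the highest for both, from 120 cells. The 7 markers of the class summed to 1286 CPM in these cells of the E50 library, against 327 CPM in the other cells, but were lower than in the other cells in E60 library 1 (311 against 487 CPM), E60 library 2 (497 against 714 CPM), E70 library 3 (124 against 208 CPM) and the adult nuclei (107 against 271 CPM), so that the markers bear out the name in the E50 library alone. Cajal-Retzius-like cells, the RELN neurons of the marginal zone, could be given for E60 library 3 alone, where 32 cells had ZIC2 at 63.3 CPM, ZIC5 at 23.1, ZIC1 at 16.1 and ZIC4 at 6.03 CPM. Photoreceptor or pineal-like cells held ZIC2 at 24.7, 8.36 and 17.7 CPM in the E50 library and E70 libraries 1 and 3, and ZIC1 at 7.19, 0 and 0 CPM. Intermediate progenitor-like cells were higher than microglia-like cells for ZIC2 in 4 of 4 libraries (1.85 on the log2 scale, exact p = 0.125, the smallest possible), but not for ZIC1 (0 of 4 libraries). In E70 libraries 1 and 3 they held only 2 and 3 UMIs of ZIC2 and ZIC5 together. In E70 library 1, with 21 such cells, 2 of the 6 class markers were above the other cells, and NEUROG1 and NEUROG2 were at 0.

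Within cells the chromosomal partners were found together more often than their separate frequencies within a class would give, but so were other pairs of ZIC genes. At 1000 UMIs per cell the odds ratio of finding ZIC1 and ZIC4 in the same cell had a median of 2.15 (1.49 to 2.26) over the 4 libraries with enough UMIs, and that of ZIC2 and ZIC5 one of 1.72 (1.14 to 2.25). Both pairs exceeded their expected number in 4 of 4 libraries, as did ZIC4 and ZIC5 (1.79), a pair on different chromosomes. These excesses rest on few cells. Per library 3 to 11 cells had ZIC1 and ZIC4 (1.71 to 5.94 expected) and 2 to 10 had ZIC2 and ZIC5 (1.06 to 5.68 expected). In the E50 library 2 cells had ZIC2 and ZIC5, where 1.77 were expected. ZIC1 and ZIC2 (1.90) and ZIC2 and ZIC4 (1.85), also on different chromosomes, exceeded theirs in 3 of 4 libraries. ZIC1 and ZIC5 had a median of 0.786 and exceeded it in 1 of 4 libraries, but at full depth they had a median of 2.47 and exceeded it in 8 of 8 libraries, beside 4.31 for ZIC1 and ZIC4 (6 of 7 libraries), 3.18 for ZIC2 and ZIC4, 2.96 for ZIC1 and ZIC2 and 2.92 for ZIC2 and ZIC5. At full depth ZIC1 and ZIC4 had the highest odds ratio among the pairs of members in the E50 library (5.38) and E60 libraries 1 (4.31), 2 (5.91) and 3 (6.62). The next highest there were 4.22, 3.09, 3.94 and 4.49, while in E70 library 1 ZIC1 and ZIC4 were at 0.833. ZIC2 and ZIC5 did not stand apart from pairs on different chromosomes, and ZIC4 and ZIC5 had the lowest median (2.13). In granule-like cells 1 cell had a UMI of both ZIC1 and ZIC5, where 7.63 were expected, 14 had ZIC1 and ZIC4 (1.48 times the expected number) and 11 had ZIC1 and ZIC2 (1.47 times). Cells are not replicates, and these ratios are a description.

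Over 63 points, each a class in a library with at least 50 cells (15 classes, 10 libraries), the gene most like each member of the 15753 compared was its chromosomal partner. Pearson's r of log2(CPM + 1) was 0.91 between ZIC1 and ZIC4 and 0.82 between ZIC2 and ZIC5. Outside the family, ZIC1 was most like COL3A1 (0.75) and COL6A1 (0.73), and ZIC4 like COL3A1 (0.69) and TIMP1 (0.68). ZIC2 was most like TIMP1 (0.79), SERPINH1 (0.78) and ID3 (0.77), and ZIC5 like VIM (0.74) and GPX8 (0.74). COL3A1 and COL6A1 are collagens of fibroblasts, SERPINH1 is a collagen chaperone and TIMP1 an inhibitor of metalloproteinases. The points share libraries and differ in depth, and r is given as a description.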

How the data were processed

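The authors mapped the reads with Cell Ranger (version 2.20 per the labels) to pre-mRNA of Sscrofa11.1, so intronic reads are included, and deposited UMI counts per gene and cell before normalization. All 28229 deposited cells were used. Per cell, counts were scaled to 10000 UMIs and log-transformed, and 3000 variable genes without the ZIC, marker and listed genes (173 held out), 50 principal components, mutual nearest neighbours (k = 20) and Louvain clustering (resolution 1.6) gave 41 clusters (scanpy 1.11.5). Clusters were named by the marker list whose genes, as z-scores, stood highest on average, provided that 3 or more of them reached 10 CPM, and the limits of this rule were set after the clusters were seen. Under it 1981 cells in 4 clusters stayed unnamed (2.82% to 8.27% per library, 37.1% of the E70 nuclei). Of 131 markers 128 were found. Markers at 0 in 3 or more libraries of their class were FOXC1 and FOXC2 (fibroblast), CBLN3 (granule), NEUROG1 and NEUROG2 (intermediate progenitor), POU4F1 (non-cortical glutamatergic) and OLIG2 (oligodendroglia).

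Counts summed per library or class (at least 20 cells) were tested with edgeR 4.0.16 (quasi-likelihood, TMM, filterByExpr) on the 3 E60 and 3 E70 whole cell libraries, with Benjamini-Hochberg adjustment over all genes. On simulated data with the depth of all cells, 89.8% of genes changed 4-fold and 14.1% of genes changed 2-fold were recovered, with 8 false calls. There the libraries of both stages shared the same mean for each unchanged gene and a fixed spread, and only genes with enough counts were changed. The differences among the real E60 libraries were not simulated, so these shares are not the power of the test in these data. In classes, exact sign flips over libraries were used. Alternatives were DESeq2 1.42.0, no filter, the replicate block, each library left out, other clusterings, cell minimums of 50, a pseudocount of 10 in place of 1, whole cells only and doublet removal. Scrublet marked no cell in E60 libraries 1 and 2, so its calls did not work there, and a fixed score of 0.25 was added (463 cells, 1.64%). At most 57 cell barcodes were shared by any pair of libraries. For shares of cells, each cell was drawn down to 1000 UMIs, which left out 1987 cells. Sequences and gene positions are from RefSeq for Sscrofa11.1. All 4 members matched by symbol. The named genes are the members, called genes and the 3 highest of each list, and the 5 genes most like each member. Some genes of the lists are not reported here. The members, lists and markers were chosen with earlier results of these data known.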

Additional observations from a re-analysis of the deposited data

Results flagged for a closer look

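Signal outside the named classes was found in 2 places. An unnamed cluster of 647 cells, led by PCP4, TAC1 and CALB1, held ZIC1 at 23.3 CPM, ZIC2 at 23.1 CPM, ZIC4 at 27.8 CPM and ZIC5 at 15.2 CPM over all libraries. Most of its cells came from E60 libraries 1 (419) and 2 (153), and 9.12% had a doublet score over 0.25, against 1.64% of all cells. A second unnamed cluster, of 892 cells led by KCNIP3, EFNA5 and EGFR, held ZIC2 at 12.3 CPM, ZIC5 at 11.098 CPM, ZIC4 at 7.85 CPM and ZIC1 at 3.42 CPM. In E60 library 2 its ZIC4 was at 52.4 CPM and its ZIC5 at 40.8 CPM, and in E70 library 3 it had 55 UMIs of ZIC2 and ZIC5 but 1 of ZIC1 and ZIC4. Microglia-like cells held the 4 genes at 3.61 to 4.57 CPM over all libraries.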

How the results depend on the processing

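Of 549 values under an alternative, 376 were of single classes against microglia-like cells, which could not pass the threshold in the main setting. For these only the direction is informative, and 364 kept it while 12 reversed. The other 173 include counts of called genes, called classes and gene pairs, taken as unchanged when equal or close to the main count. Of the 173, 152 were unchanged, 11 became called, 6 reversed and 4 counts or shares moved. Under DESeq2 the log2 fold changes between E60 and E70 were -3.49 (ZIC1), -2.17 (ZIC2), -5.59 (ZIC4) and -2.15 (ZIC5), all called, among 2833 genes called in either direction (17%), where edgeR called 0. The 2 tools differed on the same counts and the cause was not tested. ZIC4 passed the filter on low counts through the E60 libraries, so its call is not taken as support. With each library left out in turn the values of edgeR ranged from -3.86 to -3.15 (ZIC1), -2.46 to -1.60 (ZIC2), -6.65 to -4.86 (ZIC4) and -2.53 to -1.41 (ZIC5), with adjusted p from 0.0131 to 0.386, and 0 to 5902 genes called (5902 without E60 library 3, 1570 without E70 library 3). Same-numbered libraries of E60 and E70 did not deviate together (correlations -0.17, 0.03 and -0.13), although those numbered 1 shared a sequencing pool, as did those numbered 3. With the replicate block the values of edgeR were -3.51, -2.07, -5.35 and -1.96 (adjusted p 0.275 each) with 0 genes called. Without erythroid-, endothelial-, mural- and fibroblast-like cells they were -4.81, -1.80, -11.0 and -2.11, where few ZIC4 UMIs were left at E70 and its value depends on the prior count. In astroglia-like cells the left-out range was -8.51 to -5.74 (ZIC1, adjusted p 0.0493 without E60 library 3, where 1.93% of genes were called lower and ZIC1 passed the filter through the E60 libraries alone, so that this p supports nothing), -1.06 to 0.40 (ZIC2), -9.19 to -8.71 (ZIC4) and -0.85 to 0.36 (ZIC5), and for ZIC1 and ZIC4 it rests on the fits in which they passed the filter. ZIC2 there changed sign without E60 library 2 (0.40), E60 library 3 (0.07), E70 library 1 (0.06), E70 library 2 (0.34) and batch correction (0.52), and ZIC5 without E60 library 2 (0.36). Against microglia-like cells, ZIC1 in astroglia-like cells ranged from -0.47 to 0.0353 with each library left out and was 0.0411 with a minimum of 50 cells, 0.0404 without batch correction, 0.0353 in whole cells alone and without the adult nuclei, and 0.00490 without E60 library 3. ZIC4 in astroglia-like cells ranged from -0.17 to 0.30 with each left out and was 0.0772 with log2(CPM + 10), 0.0894 at resolution 0.8, 0.164 without batch correction, 0.118 without Scrublet doublets, 0.132 without cells of score over 0.25 and 0.296 without E60 library 3, and in endothelial-like cells -0.63 without cluster 13 (the score and cluster 13 alternatives were chosen after seeing the data). A UMI of any of the 4 genes was in 3.77% of cells at 1000 UMIs and in 14.8% at full depth. Depth limits what a count of 0 says, as for ZIC4 at E70. The smallest exact p limits all the class tests, since none could pass after adjustment in the main setting.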
